A study of Mus musculus with 3 samples.

Results

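Sinusoidal endothelial cells of mouse bone marrow that carried little mRNA of the chemokine Cxcl9 numbered 6073 among 12790 cells that passed the filters, in 3 single-cell RNA sequencing libraries. A cell was a member when it had at least 500 detected genes, at most 10% mitochondrial UMIs (unique molecular identifiers, 1 per captured transcript), at least 5 UMIs summed over the endothelial genes Cdh5, Pecam1, Eng and Kdr with at least 1 of Cdh5, and fewer than 50 of the stromal chemokine gene Cxcl12. It also needed at least 2 UMIs of the sinusoidal scavenger receptor gene Stab2, fewer than 10 of Cxcl9, fewer than 2 of the cell cycle genes Mki67 and Top2a together, and not more than 1 of 6 arterial genes (Sox17, Sema3g, Fbln2, Gja4, Gja5, Bmx). The cells were chosen on these counts, so levels of the genes in the rule, and differences from cells that fail it, are descriptions and were not tested.

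The VC library came from Cdh5CreERT2;Vegfc flox/flox mice, in which a Cre recombinase driven by the VE-cadherin (Cdh5) promoter and switched on by tamoxifen can delete the floxed gene of the lymphangiogenic growth factor VEGF-C in endothelium. The FLOX library came from Vegfc flox/flox mice with no Cre in the label, and the WT library from wild-type mice. All 3 groups were of strain C57Bl/6JCrl and had been given tamoxifen by gavage, so tamoxifen is common to the controls, while a control carrying the Cre without the floxed allele was not analysed here. Each genotype is 1 library, the sources used here do not give the number of mice behind it, and no p-value can be had: a difference between genotypes cannot be told apart from a difference between these 3 libraries.

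Sinusoids are the thin-walled, fenestrated venous vessels through which blood cells leave the marrow. Their endothelium clears waste from blood through the stabilin scavenger receptors, carries the VEGF-C receptor VEGFR3 (Flt4), and forms part of the niche of haematopoietic stem cells. Interferon gamma induces Cxcl9, a chemokine that attracts activated T cells, together with guanylate-binding proteins, immunity-related GTPases and antigen presentation genes.

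The VC, FLOX and WT libraries held 673, 2850 and 2550 members, with 7049030, 24484426 and 29992138 UMIs in all and a median of 9479, 7457 and 10510.5 UMIs per cell. Levels are given as CPM, a gene's UMIs per 1000000 UMIs of all members of the library, with exact 95% Poisson intervals where shown, which cover counting error only. A gene with 3 UMIs stands at 0.426 CPM in VC, 0.123 CPM in FLOX and 0.10003 CPM in WT, which is taken as the floor of each library. The FLOX and WT files shared 10 cell barcodes, VC and WT 6, and VC and FLOX 5, and 1 shared barcode was a member in both FLOX and WT.

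RNA of other cells stood apart by library, and 29 VC, 73 FLOX and 147 WT members were rich in it. These had at least 10 UMIs of the neutrophil list or of the haemoglobin list, or at least 100 UMIs of the immunoglobulin gene Igkc. The neutrophil list of 11 genes summed to 3160.0 CPM in VC, 2018 CPM in FLOX and 463 CPM in WT members, and none of its genes was at 0 in any library. The haemoglobin list of 7 genes summed to 92.5 CPM in VC, 28.5 CPM in FLOX and 2236 CPM in WT members. The plasma cell list of 8 genes summed to 1196 CPM in VC, 4788 CPM in FLOX and 1006 CPM in WT members, with Tnfrsf17 at 0 in VC. The T and NK cell list of 9 genes summed to 0.709 CPM in VC, 0.817 CPM in FLOX and 0.967 CPM in WT members, and the T cell receptor genes Cd3e and Cd3g and the interferon gamma gene Ifng were at 0 in all 3 libraries. Members rich in neutrophil RNA held 96.7% of that list's UMIs in VC, 91.7% in FLOX and 39.8% in WT, those rich in haemoglobin RNA 58.4% in VC, 45.6% in FLOX and 93.8% in WT, and those rich in Igkc 0% in VC, 85.2% in FLOX and 42.3% in WT of Igkc. Results that rest on neutrophil, haemoglobin or immunoglobulin RNA are given below with and without those members.

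Members made up 37.5% of endothelial cells in VC (673 of 1793, exact binomial 95% interval 35.3% to 39.8%), 81.2% in FLOX (2850 of 3510, 79.9% to 82.5%) and 81.7% in WT (2550 of 3120, 80.3% to 83.1%). The Cxcl9 limit set this: Stab2-positive endothelium regardless of Cxcl9 was 82.0% of endothelial cells in VC, 83.1% in FLOX and 85.6% in WT. Of that endothelium, 45.8% in VC, 97.7% in FLOX and 95.4% in WT lay below the limit. The cells removed by it, with 10 or more Cxcl9 UMIs, numbered 797 in VC, 68 in FLOX and 122 in WT, and had a median of 62 Cxcl9 UMIs in VC and 14 in both FLOX and WT. Because Cxcl9 chose the members, these shares describe the choice.

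**Figure D1:**
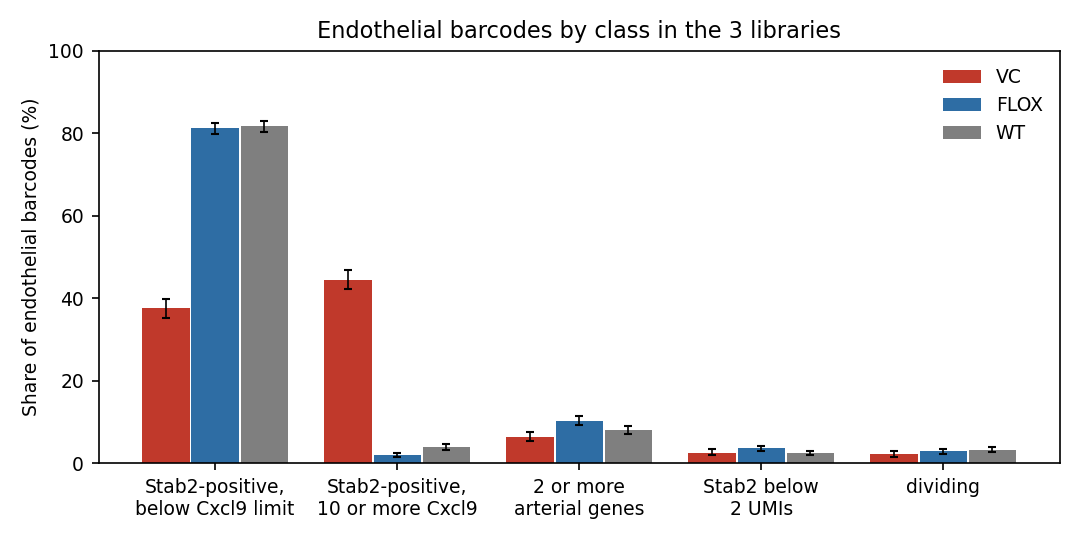
Share of endothelial barcodes (%, vertical axis) in 5 classes for the VC, FLOX and WT libraries, with exact binomial 95% intervals as bars. Stab2-positive cells below the Cxcl9 limit are 37.5% in VC against 81.2% in FLOX and 81.7% in WT, and those at 10 or more Cxcl9 UMIs are 44.5% in VC against 1.94% in FLOX and 3.91% in WT.

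Some cells lay close to either side of the thresholds. Members with 8 or 9 Cxcl9 UMIs numbered 18 in VC, 35 in FLOX and 54 in WT, and cells just outside with 10 or 11 numbered 15 in VC, 20 in FLOX and 36 in WT. Members with exactly 2 Stab2 UMIs numbered 19 in VC, 122 in FLOX and 36 in WT, and otherwise eligible cells with 1 numbered 20 in VC, 79 in FLOX and 40 in WT. No Cxcl9 UMI was found in 376 VC members (55.9%), 1548 FLOX members (54.3%) and 1089 WT members (42.7%). Members with 4 to 9 Cxcl9 UMIs numbered 73 in VC, 225 in FLOX and 416 in WT. The median member had 13 Stab2 UMIs in VC, 11 in FLOX and 19 in WT.

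Sinusoidal marker genes outside the rule were detected in members of each library. Stab1, the paralog of the scavenger receptor Stab2, stood at 754 CPM in VC, 699 CPM in FLOX and 618 CPM in WT members. Flt4, the receptor of VEGF-C, stood at 794 CPM in VC, 750.5 CPM in FLOX and 703 CPM in WT. Abcc9, a regulatory subunit of ATP-sensitive potassium channels, stood at 1415 CPM in VC, 1465 CPM in FLOX and 1851 CPM in WT, and the channel's pore subunit gene Kcnj8 at 277 CPM in VC, 301.5 CPM in FLOX and 400.1 CPM in WT. The membrane glycoprotein gene Gpm6a stood at 703 CPM in VC, 717 CPM in FLOX and 1037 CPM in WT, and the adhesion G protein-coupled receptor gene Adgrg6 at 614 CPM in VC, 496 CPM in FLOX and 574 CPM in WT. After each cell was thinned to 3000 UMIs, 95.6% of VC, 97.5% of FLOX and 98.4% of WT members still had a Stab2 UMI. Cells with leukocyte genes and no endothelial call had one in 2.91% of cases in VC, 4.55% in FLOX and 4.91% in WT, at median depths of 11866, 11682.5 and 8642 UMIs. Lyve1, which marks sinusoids of the liver and lymphatic vessels, was near absent, with 1 UMI in VC, 3 in FLOX and 5 in WT members.

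Of a list of 19 sinusoidal genes, 18 could be counted with Stab2 left out, and none was past the size rule in VC in either direction. A gene was past the size when a library was at least 1.5-fold above or below both others and by more than those differed from each other, among the 8291 genes that averaged 10 CPM or more and had 50 or more UMIs in all. By that rule 33 genes (0.398% of those tested) were higher and 17 (0.205%) lower in VC. The median log2 ratio of the sinusoidal list was 0.10 for VC over FLOX and 0.09 for VC over WT, against 0.03 and -0.07 over all genes tested. Among the most abundant genes of the list were the matrix protease gene Adamts5 at 4077 CPM in VC, 3247 CPM in FLOX and 3068 CPM in WT, and the gp130 cytokine receptor gene Il6st at 3556 CPM in VC, 3116 CPM in FLOX and 3309.5 CPM in WT. The tissue factor inhibitor gene Tfpi was at 3310.1 CPM in VC, 2906.5 CPM in FLOX and 3866 CPM in WT. The exception among the 3 libraries was WT: the leukocyte adhesion gene Vcam1 stood at 2661 CPM in VC, 3001 CPM in FLOX and 1555 CPM in WT, the only gene of the list past the size for any library. Over all genes tested, 0.929% were lower in WT.

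**Figure D2:**
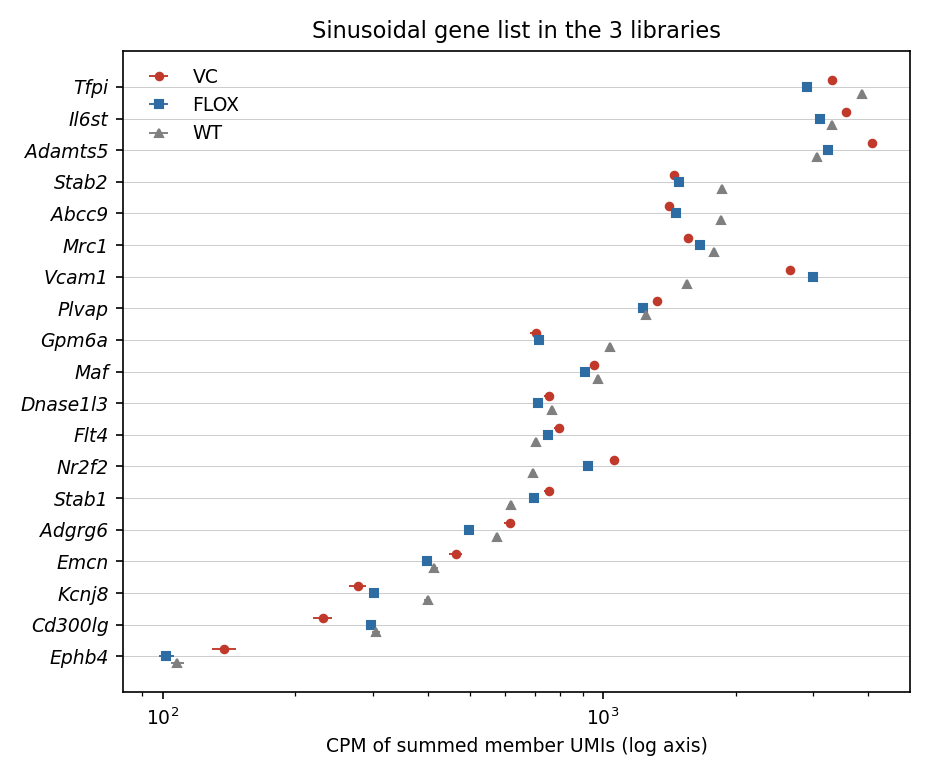
CPM of summed member UMIs (log axis) for 19 genes of the sinusoidal list, Stab2 included, in the VC, FLOX and WT libraries, with exact Poisson 95% intervals. The 3 libraries lie close for nearly all genes, and the widest gap is that of Vcam1, at 2661 CPM in VC and 3001 CPM in FLOX against 1555 CPM in WT.

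Other genes set members apart from the remaining endothelium of their own library, which is a description since the cells were chosen. The leading ones were the atypical chemokine receptor gene Ackr1, the transcription factor gene Meis2, the protocadherin gene Pcdh7, Adgrg6, Lhfpl2, the P-selectin gene Selp and the microtubule-associated kinase gene Dclk1. Against Stab2-positive cells above the Cxcl9 limit, with 10 CPM added to each level, their folds were smaller. These were 1.34 to 1.86 in VC and 0.897 to 1.19 in FLOX and WT. In VC the remaining endothelium is mostly Cxcl9-high sinusoidal cells, so a narrower contrast, added after the data had been seen, set members against Stab2-low and arterial-gene endothelium. There the adhesion receptor gene Cxadr led: it stood at 370.4 CPM in VC, 373 CPM in FLOX and 528 CPM in WT members, against 74.4 CPM in VC, 119.7 CPM in FLOX and 168 CPM in WT arterial-gene endothelium. Ston2, an endocytic adaptor gene, came next, then Adgrg6, Dclk1 and Ackr1, and after them Sema3a, a secreted guidance cue gene. Ston2 stood at 389 CPM in VC, 299 CPM in FLOX and 341 CPM in WT members, against 63.6 CPM in VC, 107 CPM in FLOX and 106 CPM in WT arterial-gene cells. Sema3a stood at 680.1 CPM in VC, 571 CPM in FLOX and 495 CPM in WT members, against 142 CPM in VC, 221 CPM in FLOX and 152 CPM in WT arterial-gene cells. Stab2-positive cells above the Cxcl9 limit held Cxadr at 361 CPM in VC, 427 CPM in FLOX and 646 CPM in WT. Those cells held Ston2 at 315 CPM in VC, 292 CPM in FLOX and 326 CPM in WT. Sema3a stood there at 714 CPM in VC, 676 CPM in FLOX and 486 CPM in WT. Cxadr, Ston2 and Sema3a were thus not particular to cells below the limit.

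Vegfc, the gene targeted in VC, was close to the floor in members of every library, so it checks the labels weakly. Members held 3 Vegfc UMIs in VC, 15 in FLOX and 49 in WT, or 0.426 CPM in VC (0.0878 to 1.24), 0.613 CPM in FLOX (0.343 to 1.01) and 1.63 CPM in WT (1.21 to 2.16). The VC and FLOX intervals overlap, and the VC count is at the floor. Of the VEGF pathway list of 16 genes, 10 were measured and 0 were past the size in any library, with median log2 ratios of 0.07 for VC over FLOX and 0.02 for VC over WT. The receptor genes Kdr (1648 CPM in VC, 1756 CPM in FLOX, 1877 CPM in WT), Flt1 (758 CPM in VC, 689 CPM in FLOX, 609 CPM in WT) and Nrp2 (566 CPM in VC, 561 CPM in FLOX, 531 CPM in WT) lay within 1.5-fold of each other across libraries. Prox1, the lymphatic transcription factor gene, was under the 10 CPM minimum, with 21 UMIs in VC, 132 in FLOX and 258 in WT members (2.98 CPM in VC, 5.39 CPM in FLOX and 8.60 CPM in WT).

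A small number of interferon gamma genes set VC members apart. Of a list of 30 genes with Cxcl9 left out, 23 were measured, 2 were higher in VC by the size rule and 0 were lower, where 0.398% of all genes tested were higher and 0.205% lower. Gbp4, a guanylate-binding protein gene, stood at 80.9 CPM in VC (74.4 to 87.8), 32.2 CPM in FLOX (30.0 to 34.5) and 37.6 CPM in WT (35.4 to 39.9). Igtp, an immunity-related GTPase gene, stood at 41.99 CPM in VC (37.3 to 47.1), 21.9 CPM in FLOX (20.1 to 23.9) and 18.1 CPM in WT (16.6 to 19.7). VC was the highest library for both, and its counting intervals did not overlap those of the controls. Of the same list 1 gene was higher and 1 lower in WT, against 0.929% each of all genes tested. The higher one was Tgtp2, at 16.9 CPM in VC, 14.2 CPM in FLOX and 26.3 CPM in WT, and the lower one Cxcl10. Over the 23 genes the log2 ratio had a median of 0.31 for VC over FLOX, 0.31 for VC over WT and -0.04 for FLOX over WT, against 0.03, -0.07 and -0.10 over all genes tested.

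Ifngr1, Iigp1 and Irf1, also of the list, were not past the size. The receptor gene Ifngr1 stood at 270.0 CPM in VC, 278 CPM in FLOX and 279 CPM in WT. The GTPase gene Iigp1, the most abundant of the list, stood at 519 CPM in VC, 342 CPM in FLOX and 354 CPM in WT, and the transcription factor gene Irf1 at 118 CPM in VC, 99.8 CPM in FLOX and 89.2 CPM in WT. Iigp1 was 1.52-fold over FLOX and 1.47-fold over WT, so it missed the rule narrowly. Of 19 class I antigen presentation and immunoproteasome genes, all measured, 0 were past the size in VC, with median log2 ratios of 0.02 for VC over FLOX and 0.33 for VC over WT. Its most abundant gene, the class I light chain gene B2m, stood at 1604 CPM in VC, 1390.0 CPM in FLOX and 1337 CPM in WT.

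Both Cxcl10 and Cd74 were past the size as lower in WT. Cxcl10, a chemokine gene related to Cxcl9, stood at 61.3 CPM in VC, 50.8 CPM in FLOX and 11.5 CPM in WT. Cd74, the invariant chain of class II antigen presentation and the only measured gene of that list of 8, stood at 46.5 CPM in VC, 40.1 CPM in FLOX and 5.13 CPM in WT. Without the members rich in RNA of other cells, Cd74 stood at 44.9 CPM in VC, 20.7 CPM in FLOX and 3.39 CPM in WT. Without members holding leukocyte or stromal UMIs Cd74 stood at 44.1 CPM in VC, 8.78 CPM in FLOX and 3.01 CPM in WT, and in members with 0 Cxcl9 UMIs at 20.2 CPM in VC, 49.8 CPM in FLOX and 3.98 CPM in WT. WT was thus lowest in each of these settings. VC stood above FLOX except in members with 0 Cxcl9 UMIs, a setting that kept members holding leukocyte or stromal UMIs. Without members holding such UMIs, Cd74 met the size rule as higher in VC. Without the rich members Cxcl10 stood at 63.4 CPM in VC, 50.9 CPM in FLOX and 11.7 CPM in WT. Among all genes tested, 77 (0.929%) were lower and 77 (0.929%) higher in WT than in both other libraries.

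Per cell, VC members differed from the controls in the upper tail of interferon-induced RNA. After thinning to 3000 UMIs the interferon gamma list, Cxcl9 left out, had a median of 6 UMIs per cell in 657 VC members, 6 in 2725 FLOX members and 5 in 2477 WT members. The 95th percentile was 21 UMIs in VC against 12.8 in FLOX and 13 in WT. Among members with 0 Cxcl9 UMIs it was 13 in VC, 11 in FLOX and 13 in WT, so the VC tail lay in members with some Cxcl9. VC cells at or above the Cxcl9 limit had a median of 37 UMIs, FLOX cells 9 and WT cells 7, so the 10-UMI limit does not pick the same kind of cell in the 3 libraries. Of the VC cells above the limit, 5% had 17 UMIs or fewer.

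**Figure D3:**
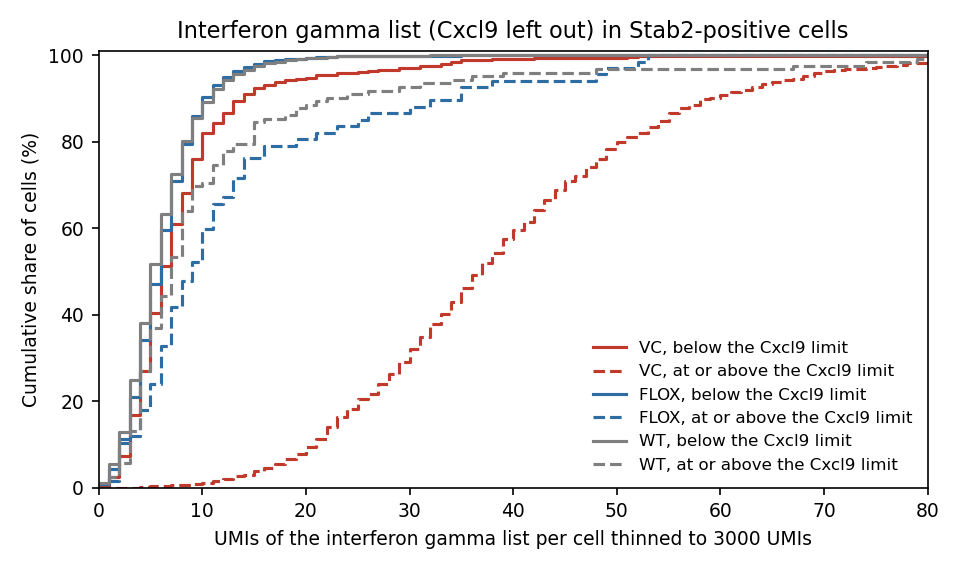
Cumulative share of cells (%, vertical axis) by UMIs of the interferon gamma list per cell thinned to 3000 UMIs (horizontal axis), for Stab2-positive cells below (solid) and at or above (dashed) the Cxcl9 limit in VC, FLOX and WT. The solid curves have medians of 6 in VC, 6 in FLOX and 5 in WT, the VC one has a longer upper tail, and the dashed VC curve has a median of 37.

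Grouping Stab2-positive cells by their Cxcl9 UMIs showed where Gbp4 came from. VC cells with 0 Cxcl9 UMIs held 44.0 CPM of Gbp4, those with 1 to 3 held 72.4 CPM, and those with 4 to 9 held 262 CPM, before 551 CPM at 10 to 29 and 773 CPM at 30 or more. The same 5 groups held 31.4, 29.8, 45.2, 107 and 519 CPM in FLOX, and 35.5, 38.2, 40.0, 47.4 and 285 CPM in WT. The 73 VC members with 4 to 9 Cxcl9 UMIs were thus above the FLOX and WT cells of the same Cxcl9 count. Iigp1 followed the same course in VC, at 374 CPM with 0 Cxcl9 UMIs, 475 CPM with 1 to 3 and 1264 CPM with 4 to 9. Restricting members to cells with no Cxcl9 UMI left 0 of the measured interferon gamma genes past the size, and a limit of 3 UMIs, added after the data had been seen, left 1. Applying the rule to cells thinned to 3000 UMIs, which by construction admits cells with more raw Cxcl9 UMIs, put 18 past it.

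**Figure D4:**
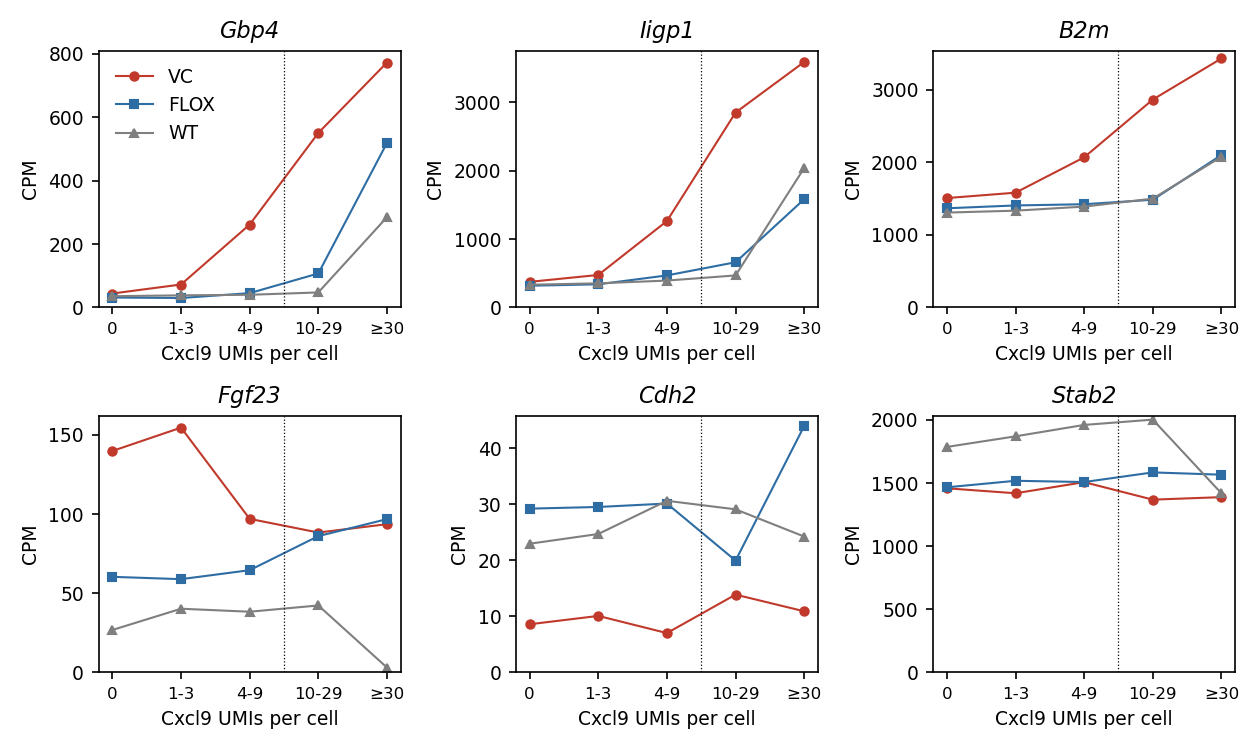
CPM of 6 genes (vertical axes, from 0) in Stab2-positive cells grouped by Cxcl9 UMIs (horizontal axis) in VC, FLOX and WT, with a dotted line at the membership limit. In VC, Gbp4 climbs across the groups to 773 CPM while Stab2 stays between 1368 and 1507 CPM and Cdh2 between 7.01 and 13.9 CPM, and the groups of 30 or more hold only 10 FLOX and 21 WT cells.

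Type I interferon genes gave a like count. Of 27 listed genes 18 were measured, and 2 were past the size, both higher in VC, against 0.398% of all genes tested: Ifit3 at 28.8 CPM in VC, 16.7 CPM in FLOX and 18.2 CPM in WT, and Ifit3b at 18.2 CPM in VC, 9.11 CPM in FLOX and 9.97 CPM in WT. They are near-identical neighbours, so how reads were split between them is uncertain. The 18 genes had median log2 ratios of 0.23 for VC over FLOX and 0.06 for VC over WT. The receptor genes Ifnar1 (54.5 CPM in VC, 57.1 CPM in FLOX, 60.9 CPM in WT) and Ifnar2 (124 CPM in VC, 123 CPM in FLOX, 121 CPM in WT) were within 1.5-fold across libraries.

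The gene most above both controls in VC was Fgf23, which encodes a hormone that lowers blood phosphate and that is known mainly from bone cells. It stood at 140.0 CPM in VC (131 to 149), 60.2 CPM in FLOX (57.1 to 63.3) and 34.9 CPM in WT (32.9 to 37.1), or 2.33-fold over FLOX and 4.01-fold over WT. The 3 intervals are separate, and FLOX was itself 1.72-fold over WT, so the controls differed too. Thinned to 3000 UMIs, 20.1% of VC members (17.1% to 23.4%), 12.1% of FLOX members (10.9% to 13.4%) and 5.45% of WT members (4.59% to 6.42%) had an Fgf23 UMI. Unthinned, the shares were 37.4% in VC, 20.7% in FLOX and 10.5% in WT. Cells with leukocyte genes, a rough background for free RNA, had one in 0 of 275 VC cells, 0.325% of FLOX cells and 0.175% of WT cells after thinning.

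Across the Cxcl9 groups Fgf23 was lower in VC at 4 or more UMIs than at fewer, a fall not seen in FLOX. VC cells with 0, 1 to 3, 4 to 9, 10 to 29 and 30 or more Cxcl9 UMIs held 139.8, 155, 96.9, 88.3 and 93.6 CPM. FLOX cells of the same groups held 60.3, 58.9, 64.5, 86.1 and 96.8 CPM, and WT cells 26.8, 40.2, 38.3, 42.2 and 3.03 CPM. VC was the highest library at 0 to 9 Cxcl9 UMIs, where the members lie, and close to FLOX above that. Arterial-gene cells stood at 29.6 CPM in VC, 24.0 CPM in FLOX and 13.0 CPM in WT, and Stab2-positive cells above the Cxcl9 limit at 92.8 CPM in VC, 87.4 CPM in FLOX and 37.0 CPM in WT. The arterial-gene cells were below the members in each library, while the cells above the limit were below the members in VC alone. Fgf23 was past the size under all 14 alternative settings, with a log2 ratio to the nearer control between 0.87 and 1.29. Without members rich in other cells' RNA it stood at 143.7 CPM in VC, 61.2 CPM in FLOX and 36.3 CPM in WT.

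Further genes higher in VC included Socs2, Socs3, Igf1 and Nfkbiz. Socs2, an inhibitor of growth hormone and related signals, stood at 237 CPM in VC (225 to 248), 139 CPM in FLOX (135 to 144) and 133 CPM in WT (129 to 138). Socs3, an inhibitor of gp130 cytokine signals, stood at 160.0 CPM in VC (151 to 170), 83.0 CPM in FLOX (79.4 to 86.6) and 97.0 CPM in WT (93.5 to 100.5). Igf1, the growth factor gene downstream of growth hormone in other tissues, stood at 53.5 CPM in VC (48.2 to 59.2), 32.3 CPM in FLOX and 30.1 CPM in WT. Nfkbiz, an atypical inhibitor of NF-kB, stood at 147 CPM in VC, 84.9 CPM in FLOX and 91.0 CPM in WT. In all 4 genes VC stood above 2 controls that were close to each other. Socs2 and Socs3 kept their call in 13 of 14 settings, and Igf1 in 11 of 13 in which it could be judged. Each lost it with no Cxcl9 limit, where all Stab2-positive endothelium is compared. There Socs2 stood at 182 CPM in VC, 140 CPM in FLOX and 134 CPM in WT. Socs3 then stood at 143 CPM in VC, 83.1 CPM in FLOX and 97.3 CPM in WT, and Igf1 at 35.8 CPM in VC, 32.2 CPM in FLOX and 30.0 CPM in WT.

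Ackr1, Ly6c1, C5ar1 and Jam2, which encode cell surface proteins, were also higher in VC. C5ar1 is in none of the lists. Higher in VC were 1 of 10 measured genes of the venular list and 1 of 11 of the adhesion list (Ackr1 in both). The arterial list had 1 of 7 (Ly6c1) and the junction list 1 of 14 (Jam2), against 0.398% of all genes tested. Ackr1, which binds chemokines on venules, stood at 569 CPM in VC (552 to 587), 369.6 CPM in FLOX (362 to 377) and 292 CPM in WT (286 to 298.6). With no Cxcl9 limit Ackr1 lost its call, at 416 CPM in VC, 368 CPM in FLOX and 289 CPM in WT. Ly6c1, a surface protein common on arterial and capillary endothelium, stood at 148 CPM in VC, 88.5 CPM in FLOX and 68.4 CPM in WT. The Ly6c1 call held in 13 of 14 settings. It was lost in members with 0 Cxcl9 UMIs, at 127 CPM in VC, 102 CPM in FLOX and 105 CPM in WT. C5ar1, the receptor gene of complement C5a, stood at 56.9 CPM in VC, 32.0 CPM in FLOX and 35.2 CPM in WT. Its call held in 10 of 13 settings and was lost without the members rich in other cells' RNA, where the log2 ratio to the nearer control was 0.55, and without members holding leukocyte or stromal UMIs, where it was 0.56. Jam2, a junctional adhesion gene, stood at 18.3 CPM in VC, 11.9 CPM in FLOX and 10.4 CPM in WT, and kept its call in 6 of 13 settings. Of the 33 VC-higher genes, Ackr1 alone was also among the 15 genes that most set members apart from other endothelium, and its level ran from high in VC through FLOX to low in WT.

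The remaining VC-higher genes had varied roles. Cdkn1a, the p21 cell cycle inhibitor gene, stood at 103 CPM in VC, 61.1 CPM in FLOX and 64.6 CPM in WT, and kept its call in 14 of 14 settings. The glucocorticoid-inducible Ras gene Rasd1 stood at 74.2 CPM in VC, 39.7 CPM in FLOX and 40.4 CPM in WT. Cmah, a sialic acid hydroxylase gene, stood at 51.2 CPM in VC, 31.7 CPM in FLOX and 20.9 CPM in WT. The actin-regulating gene Rflnb, the RNA-binding protein gene Mex3b, the lysosomal mannosidase gene Manba and the unnamed locus Gm42047 lay between 16.0 and 51.9 CPM in VC and between 7.88 and 28.3 CPM in the controls. Rasd1 kept its call in 14 of 14 settings, and Gm42047 in 13 of 13 and Manba in 12 of 12 in which they could be judged. Mex3b kept it in 12 of 13, and Cmah and Rflnb in 11 of 13 each.

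**Figure D5:**
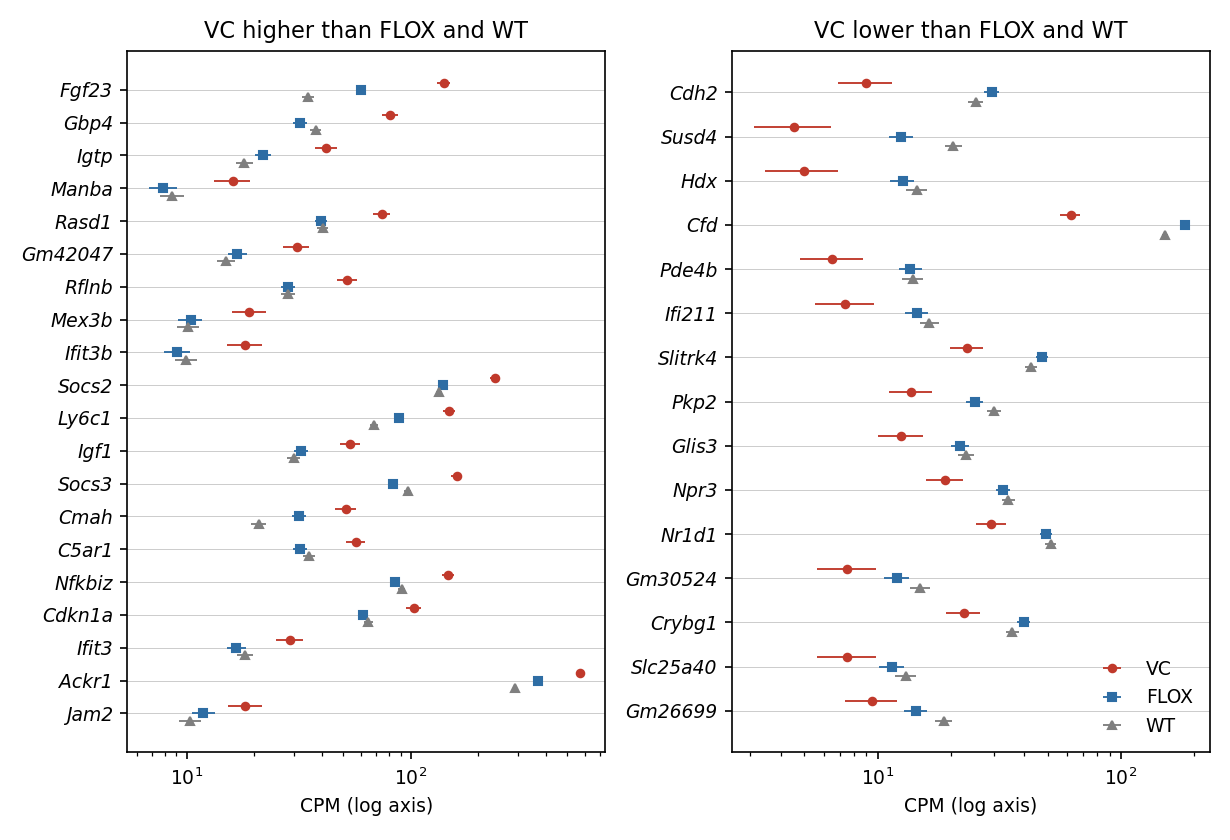
CPM (log axis) in VC, FLOX and WT members, with exact Poisson 95% intervals, of 20 named genes higher in VC (left) and 15 named genes lower in VC (right), ordered by the ratio to the nearer control. Fgf23 (140.0 CPM in VC, 60.2 CPM in FLOX, 34.9 CPM in WT) and Cdh2 (8.94 CPM in VC, 29.4 CPM in FLOX, 25.3 CPM in WT) are the first gene of each panel.

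Promoters of VC-higher genes were read because 4 of them belong to interferon lists. Of the 33 genes, 25 had an entry in the RefSeq promoter table (GRCm38.p6). A gamma-activated sequence (GAS) motif, spelled TTCNNNGAA and the same on both strands, lay within 250 bases before the start in 5 of the 25 genes (20%), against 8.13% of all 27025 genes and 6.91% of the genes tested. The core of the interferon-stimulated response element, searched on both strands as GAAA, any 2 bases, then GAAA, lay there in 3 of the 25 (12%), against 3.46% of all genes and 3.23% of the genes tested. Among 12 of the 17 VC-lower genes with an entry, 1 (8.33%) had the GAS motif and 2 (16.7%) the response element core, so the share with the core was higher among the VC-lower genes. At least 1 of the motifs lay in 7 of the 25 VC-higher genes, 3 of the 12 VC-lower genes and 11.1% of all genes. The 3 VC-higher genes with the core are Igtp, Ifit3 and Ifit3b, and the stretches of Ifit3 and Ifit3b are identical, so they are not independent. Fgf23, Socs3 and Igtp had a GAS match, with Plcb1 and Rbfox1. The Socs3 match lies before the RefSeq start but inside the gene by GENCODE vM21, which places Socs3 at chr11:117966079-117970047. A match describes letters and says nothing of a factor's binding. Matches are in capitals in these stretches, each written 5′ to 3′ on the strand of its gene, for genes with a match that are described above (Gbp4 has no entry): Igtp at chr11:58199432-58199551 (plus strand), Ifit3 at chr19:34583317-34583436 (plus), Fgf23 at chr6:127072710-127072829 (plus) and Socs3 at chr11:117969492-117969611 (minus).
Igtp: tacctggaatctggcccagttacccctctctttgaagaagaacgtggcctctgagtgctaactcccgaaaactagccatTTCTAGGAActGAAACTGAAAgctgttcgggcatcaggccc
Ifit3: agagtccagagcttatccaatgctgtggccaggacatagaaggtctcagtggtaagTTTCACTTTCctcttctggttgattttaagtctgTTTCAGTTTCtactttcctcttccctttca
Fgf23: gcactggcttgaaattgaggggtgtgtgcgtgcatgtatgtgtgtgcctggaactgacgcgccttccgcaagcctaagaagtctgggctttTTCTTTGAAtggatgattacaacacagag
Socs3: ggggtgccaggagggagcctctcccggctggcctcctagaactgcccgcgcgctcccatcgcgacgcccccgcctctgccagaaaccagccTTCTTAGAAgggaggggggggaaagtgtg

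Cdh2, which encodes the adhesion molecule N-cadherin, was the gene most below both controls in VC. It stood at 8.94 CPM in VC (6.87 to 11.4), 29.4 CPM in FLOX (27.3 to 31.7) and 25.3 CPM in WT (23.6 to 27.2), with log2 ratios of -1.72 to FLOX and -1.50 to WT. The VC interval lies far below both controls, whose intervals nearly meet. It was low in VC at every Cxcl9 count, at 8.58 CPM with 0 UMIs, against 29.2 CPM in FLOX and 22.96 CPM in WT, and at 10.9 CPM with 30 or more. After thinning, 2.59% of VC members (1.51% to 4.11%), 8.73% of FLOX members and 6.38% of WT members had a Cdh2 UMI, and unthinned 6.69% in VC, 17.5% in FLOX and 18.2% in WT. Cells with leukocyte genes had one in 2.55% of VC, 3.09% of FLOX and 0.175% of WT cells after thinning, so the VC member share was close to theirs. These cells were not screened for stromal genes and had a Lepr UMI in 7.64% in VC, 6.83% in FLOX and 1.58% in WT. They may therefore not measure free RNA alone. The call held in 13 of 13 settings that kept the gene.

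Cfd, the complement factor D gene known as adipsin, stood at 62.1 CPM in VC (56.5 to 68.2), 183.5 CPM in FLOX (178 to 189) and 152 CPM in WT (148 to 157). It was also among the genes most uneven between cells, with a variance over mean of 3.88 in VC, 5.56 in FLOX and 4.19 in WT at 3000 UMIs per cell, where the median over genes was 1.05 in VC, 1.05 in FLOX and 1.06 in WT. Cells above the Cxcl9 limit held 143.7 CPM of Cfd in VC, 224 CPM in FLOX and 192 CPM in WT. The stromal gene list of 14, whose cells express adipogenic genes, summed to 118 CPM in VC, 91.4 CPM in FLOX and 109.6 CPM in WT members, with the osteoblast gene Bglap at 0 in VC and FLOX, and its part in the Cfd difference was not tested.

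Further VC-lower genes ranged in level. Palmd, which encodes palmdelphin, stood at 56.9 CPM in VC, 85.4 CPM in FLOX and 112 CPM in WT, and Slitrk4, which encodes a membrane protein, at 23.3 CPM in VC, 47.4 CPM in FLOX and 42.7 CPM in WT. Susd4, a complement regulator gene, stood at 4.54 CPM in VC, 12.5 CPM in FLOX and 20.5 CPM in WT, and Hdx, a homeobox gene, at 4.97 CPM in VC, 12.7 CPM in FLOX and 14.5 CPM in WT. The phosphodiesterase gene Pde4b stood at 6.53 CPM in VC, 13.6 CPM in FLOX and 13.9 CPM in WT, and the desmosomal plaque gene Pkp2 at 13.8 CPM in VC, 25.1 CPM in FLOX and 30.1 CPM in WT. Npr3, the natriuretic peptide clearance receptor gene, stood at 18.9 CPM in VC, 32.8 CPM in FLOX and 34.4 CPM in WT. In each of these 7 genes VC lay below both controls with a separate counting interval. Across settings in which they could be judged, the calls of Susd4 and Npr3 held in 13 of 13 and those of Hdx and Pkp2 in 12 of 13. Pde4b kept its call in 11 of 13 and Slitrk4 in 10 of 13, and Palmd was not followed. In members with 0 Cxcl9 UMIs Slitrk4 stood at 29.9 CPM in VC, 39.5 CPM in FLOX and 35.0 CPM in WT. Ifi211, in neither interferon list, was also lower in VC, at 7.38 CPM in VC, 14.5 CPM in FLOX and 16.3 CPM in WT. Its call held in 11 of 13 settings. Of 14 measured genes of the junction list, 1 (Cdh2) was lower and 1 (Jam2) higher, against 0.205% and 0.398% of all genes tested. The junction genes Cldn5 (1206 CPM in VC, 1042 CPM in FLOX, 1101 CPM in WT) and Cdh5 (1091 CPM in VC, 986 CPM in FLOX, 1165 CPM in WT) were within 1.5-fold across libraries.

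Of 23 listed niche factor genes 11 were measured, and 3 were past the size. Over all genes tested, 0.398% were higher in VC and 0.929% lower in WT. Igf1 was higher in VC, and the insulin-like growth factor binding protein genes Igfbp2 (98.6 CPM in VC, 91.5 CPM in FLOX, 50.3 CPM in WT) and Igfbp5 (54.2 CPM in VC, 50.7 CPM in FLOX, 21.5 CPM in WT) were lower in WT. Igfbp4, the most abundant, stood at 1514 CPM in VC, 1433 CPM in FLOX and 1452 CPM in WT, and the Notch ligand gene Jag1 at 102.0 CPM in VC, 95.6 CPM in FLOX and 86.5 CPM in WT. Scavenging genes, which serve the clearance function of sinusoids, gave no call for VC: 20 were measured and 0 were past the size in VC, with median log2 ratios of 0.14 for VC over FLOX and 0.18 for VC over WT. The lysosomal protease gene Ctsl stood at 5205 CPM in VC, 4807 CPM in FLOX and 4341 CPM in WT, and the mannose receptor gene Mrc1 at 1556 CPM in VC, 1659 CPM in FLOX and 1783 CPM in WT.

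WT was the library most unlike the others, so the 2 controls were not alike. FLOX over WT, at least 1.5-fold, held for 109 genes (1.31%) upward and 170 genes (2.05%) downward, against 110 (1.33%) and 37 (0.446%) for VC over FLOX. VC over WT held for 176 genes (2.12%) upward and 206 (2.48%) downward. These comparisons share libraries. The lipid uptake receptor gene Cd36 stood at 270.1 CPM in VC, 392.1 CPM in FLOX and 784 CPM in WT, and the arginine transporter gene Slc7a2 at 32.5 CPM in VC, 47.7 CPM in FLOX and 133 CPM in WT. The cyclin D1 gene Ccnd1 stood at 55.3 CPM in VC, 82.5 CPM in FLOX and 140.5 CPM in WT. For all 3 genes the order was VC, FLOX, WT from low to high. Fabp4, a fatty acid binding protein gene and among the most abundant mRNAs of members, stood at 8791 CPM in VC, 11658 CPM in FLOX and 12399.6 CPM in WT.

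Of 13 heat shock genes, 3 were lower in WT by the size rule, against 0.929% of all genes tested, and 0 were past it in VC. Hspa1a stood at 423 CPM in VC, 254 CPM in FLOX and 138 CPM in WT. Hspa1b was at 705 CPM in VC, 420.3 CPM in FLOX and 249 CPM in WT, and Hsph1 at 52.5 CPM in VC, 40.1 CPM in FLOX and 19.8 CPM in WT. Hspa1a and Hspa1b are near-identical copies, so the split of reads between them is uncertain. Immediate early genes, which cell isolation is known to induce, were lowest in FLOX by summed CPM. The mean of the list per thinned cell was also lowest in FLOX, at 17.6 UMIs in VC, 12.7 in FLOX and 16.1 in WT. By the median per cell WT was lowest, at 14 UMIs in VC, 10 in FLOX and 6 in WT. Over 14 measured genes the log2 ratio had a median of 0.54 for VC over FLOX and -0.43 for FLOX over WT. Fos stood at 924 CPM in VC, 599.6 CPM in FLOX and 1121 CPM in WT, and Nr4a1 at 42.1 CPM in VC, 23.5 CPM in FLOX and 57.6 CPM in WT. Socs3 belongs to this list, and the part of handling in its difference was not tested.

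FLOX stood apart in 14 genes higher (0.169%) and 19 lower (0.229%), and immunoglobulin genes led the higher ones. Without the rich members 7 of the 14 and 16 of the 19 were called, and no others. Igkc stood at 202 CPM in VC, 3559 CPM in FLOX and 118 CPM in WT, and 10 FLOX members held 85.2% of the FLOX UMIs. Without the rich members Igkc stood at 202 CPM in VC, 539.9 CPM in FLOX and 66.8 CPM in WT, where it was called lower in WT and no longer higher in FLOX. The neutrophil calprotectin gene S100a8 stood at 1057 CPM in VC, 697 CPM in FLOX and 175 CPM in WT, and without the rich members at 38.6 CPM in VC, 54.9 CPM in FLOX and 107 CPM in WT, so its order turned. Hbb-bs, a haemoglobin gene, stood at 49.2 CPM in VC, 14.0 CPM in FLOX and 1045 CPM in WT, and without the rich members at 19.6 CPM in VC, 7.33 CPM in FLOX and 73.2 CPM in WT. Leaving the rich members out cut the genes lower in WT to 53, of which 46 were among the 77, while 29 were higher in VC, of which 28 were among the 33, and 22 lower, among them all 17. So 28 of 33 higher and 17 of 17 lower VC calls stood without those members, while S100a8 was no longer lowest in WT.

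Members were uneven among themselves in few genes. The highest variance over mean at 3000 UMIs per cell belonged to Gm42418, a locus known to overlap ribosomal RNA, at 171 in VC, 153 in FLOX and 239.9 in WT. Protein-coding genes were ranked by the lowest value of the 3 libraries, with markers of other cells left out. The calcification inhibitor gene Mgp led these, at 6.96 in VC, 8.81 in FLOX and 8.10 in WT, then Fabp4 at 6.16 in VC, 8.25 in FLOX and 7.11 in WT. Igfbp5 was above both in VC, at 25.9, and stood at 7.45 in FLOX and 5.92 in WT. The immediate early gene Fos was most uneven in WT, at 4.31 in VC, 4.43 in FLOX and 10.3 in WT. The immediate early list summed to a median of 14 UMIs per cell in VC, 10 in FLOX and 6 in WT, with a 95th percentile of 49 in VC, 36 in FLOX and 63 in WT, so WT cells had both the lowest median and the longest tail. The sinusoidal list summed to a median of 75 UMIs per cell in VC, 70 in FLOX and 70 in WT, with 5th percentiles of 44 in VC, 42 in FLOX and 41.8 in WT.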

How the data were processed

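The deposited files hold raw UMI counts per gene and barcode from the authors, 1 filtered matrix for each of 3 libraries made with a 10x 3′ kit, per the labels' protocols. Cell Ranger 2.1.1, Seurat 3.1 and mm10 appear in the submitters' processing notes. Software 3.1.0 appears in the file headers, and which version counted the reads is unclear. No cell annotation was used. Members and gene lists were chosen with earlier results of these data known. Members were found by the rule in raw counts, and their UMIs were summed per library and scaled to CPM. With 1 library per genotype no test was run: a gene was past the size at 1.5-fold beyond both other libraries, checked on simulated data. The simulated data held counting error and set changes in VC, and no other difference between libraries. Shares have exact Clopper-Pearson and levels exact Poisson intervals at 95%, counting error only. Shares across depths used cells thinned to 3000 UMIs, leaving out 16 VC, 125 FLOX and 73 WT members. Named genes are those of the rule and Vegfc, the 15 most past the size in each direction for VC, up to 8 each for FLOX and WT, leading list genes, and identity and variance leaders, 224 in all. Irf1, Cxcl10, Prox1, Lyve1, the heat shock genes, Cxadr, Ston2, Sema3a, Plcb1, Rbfox1, Palmd, Igfbp2 and the genes at 0 fall outside that rule and were named after their values were seen. Scrublet, at an expected rate of 6%, called 9 VC, 72 FLOX and 10 WT cells, too few to have worked in VC and WT, so doublets may remain. Python 3.11.15, numpy 2.4.6, scipy 1.17.1 and scanpy 1.11.5 were used. Gene coordinates are GENCODE vM21 (GRCm38) and promoters RefSeq. Motif searches covered 250 bases.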

Additional observations from a re-analysis of the deposited data

How the results depend on the processing

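No paired analysis was possible because each genotype is 1 library and no test was run. The share of endothelial cells moved with the Cxcl9 limit: with 0 UMIs it was 21.0% in VC, 44.1% in FLOX and 34.9% in WT, with 3 or fewer 33.5% in VC, 74.8% in FLOX and 68.4% in WT, with no limit 82.0% in VC, 83.1% in FLOX and 85.6% in WT, and with the rule on thinned cells 44.2% in VC, 78.7% in FLOX and 85.7% in WT. In FLOX it was 77.7% at 3 Stab2 UMIs, 83.4% at 1, and 79.1% without members holding leukocyte or stromal UMIs (79.09%) or rich in other cells' RNA (79.12%), where WT was 77.0%. The 33 genes higher in VC became 12 at a 50 CPM minimum, 204 with none, 117 with no Cxcl9 limit and 68 with thinned cells. The 17 lower became 2, 350, 27 with each cell weighted alike and 45 at 0 Cxcl9 UMIs. The 2 interferon gamma genes became 1 at 50 CPM, 4 with no minimum, 0 at 0 Cxcl9 UMIs, 21 with no limit, 1 at 3 or fewer and 18 with thinned cells. The sinusoidal list stayed at 0 in these settings. With no limit the log2 ratio of VC to the nearer control turned to 0.55 for Ifi211, 0.29 for Crybg1 and 0.50 for Pf4, and at 0 UMIs to -0.091 for Jam2. Where the limit was loosened, more induced cells enter by construction, and the causes of the other moves were not tested. Of 36 VC genes followed, 35 kept their call under median-of-ratios scaling, which shifted all genes by under 0.1 on the log2 scale and changed WT to 49 higher and 94 lower. The VC count of 673 cells limits low genes: 3 UMIs are 0.426 CPM.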

Other observations

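Of 12 clock genes looked at, several differed between libraries, and they were picked after their values had been seen. Arntl, which encodes the activator BMAL1, stood at 13.2 CPM in VC, 4.98 CPM in FLOX and 15.1 CPM in WT members. Its output genes Dbp (38.7 CPM in VC, 58.2 CPM in FLOX, 31.6 CPM in WT) and Hlf (16.6 CPM in VC, 27.04 CPM in FLOX, 14.5 CPM in WT) were highest where Arntl was lowest. The repressor gene Nr1d1 stood at 29.4 CPM in VC, 49.2 CPM in FLOX and 51.5 CPM in WT, and Per1 at 23.4 CPM in VC, 23.6 CPM in FLOX and 11.7 CPM in WT. Others lay close across libraries, with Cry2 at 20.7 CPM in VC, 24.1 CPM in FLOX and 20.8 CPM in WT, Tef at 88.7 CPM in VC, 108 CPM in FLOX and 89.5 CPM in WT, and Cry1 at 16.6 CPM in VC, 13.8 CPM in FLOX and 12.5 CPM in WT. The sources used here give no collection times, and their part in these values was not tested.

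Genes higher in WT than in both other libraries lay on chromosome 8 more often than genes tested did. Of 77 genes higher in WT, 11 (14.3%) lay there, and of 77 lower in WT 5 (6.49%), against 5.50% of all genes tested. In the stretch from 33 to 42 Mb, chosen after the data had been seen, 8 of 30 tested genes (26.7%) had WT apart in either direction, against 1.86% of all genes. The locus Gm6213, at 39.3 Mb, had no UMI in VC or FLOX and 1101 UMIs in WT, so WT was at least 86.3-fold higher than VC and at least 299.6-fold higher than FLOX against a floor of 3 UMIs per library. Slc7a2, at 40.9 Mb, and the macrophage scavenger receptor gene Msr1, at 39.6 Mb (4.40 CPM in VC, 5.84 CPM in FLOX, 21.3 CPM in WT), lay beside it, and Zdhhc2, at 40.4 Mb, ran the other way (14.2 CPM in VC, 17.6 CPM in FLOX, 5.83 CPM in WT). Vegfc lies at 54.1 Mb on the same chromosome and Gpm6a next to it. VC and FLOX mice both carry the floxed Vegfc allele, and its chromosomal surroundings cannot be told apart from the rest of the genotype here.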
